A study of Mus musculus with 2 samples.

Results

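Ferritin and the genes that the transcription factor NRF2 switches on were followed in MC38 tumour cells after 6 days with an antibody that blocks PD-1 or with control IgG. The 10 genes are Fth1 and Ftl1, the ferritin heavy and light chains; Tfrc, the transferrin receptor; and the NRF2 targets Hmox1, Nqo1, Gclm, Gclc, Slc7a11, Txnrd1 and Srxn1. They were chosen by symbol, and all 10 were found once among the 28692 genes of both count matrices.

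The cells came from MC38 colon carcinoma tumours of C57BL/6 albino mice, cut up and grown as spheroids in collagen on a microfluidic chip. One culture received the PD-1 blocking antibody RMP1-14 (aPD-1) and the other the IgG clone 2A3, both at 10 µg/mL, and on day 6 the tumour cells were sorted and read with 10x Chromium 3′ chemistry. There was 1 library of each treatment, so no test could be made, and each difference is one between 2 libraries that the treatment, the sort and the loading may each set; these cannot be told apart.

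Ferritin is the hollow protein shell in which cells keep iron. Its heavy chain oxidises iron on entry and its light chain helps the mineral core to form, while the transferrin receptor brings iron into the cell. Iron regulatory proteins bind hairpins called iron-responsive elements, which block translation of the ferritin mRNAs and stabilise the Tfrc mRNA when iron is scarce. NRF2 (gene Nfe2l2), held down by KEAP1, drives genes that make glutathione, recycle thioredoxin, import cystine and break down haem, and the ferritin chains are among its known targets as well. Slc7a11 is also a target of ATF4, the factor of the amino acid and unfolded protein responses.

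Cells with at least 5000 unique molecular identifiers (UMIs, each standing for 1 captured transcript) and at most 10% mitochondrial UMIs were kept: 3356 in aPD-1 and 2198 in IgG, with medians of 16577 and 20663 UMIs. Ribosomal protein genes took 38.2% of UMIs in aPD-1 and 34.5% in IgG, and the kept cells of the 2 libraries shared 8 barcodes. Levels are given as CPM, the UMIs of a gene scaled to the total of all UMIs, over the summed cells of a library. These 3′ counts were not divided by length, so levels are set side by side mainly between libraries for 1 gene. In such sums, fewer cells that express a gene and less RNA per cell cannot be told apart. The 5 epithelial markers were at or near 0 in these cells of a carcinoma line, summing to 0.114 CPM in aPD-1 and 0.344 in IgG, with Krt18 at 0 in both and Epcam at 0 UMIs in aPD-1 and 1 in IgG. The mesenchymal gene Vim stood at 1732 CPM in aPD-1 against 1953 in IgG.

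The ferritin chains were by far the most abundant of the 10 genes and both were higher in the aPD-1 library. Fth1 (chr19:9980598-9985098, plus strand, GRCm38) stood at 3779 CPM in aPD-1 against 2937 in IgG, a ratio of 1.29 (95% counting interval 1.28 to 1.30). Ftl1 (chr7:45457944-45459884, minus strand) stood at 3210 CPM in aPD-1 against 2377 in IgG, a ratio of 1.35 (1.34 to 1.36). Reads that match both Ftl1 and its near-copy Ftl1-ps1, which had 3.89 CPM in aPD-1 against 4.27 in IgG, could be split between them in ways these counts do not show. All intervals cover counting error only and say nothing of how a second culture would vary. Together the chains made up 0.699% of all UMIs in aPD-1 and 0.531% in IgG.

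Tfrc, which carries iron inward, lay on the other side. It had 61.5 CPM in aPD-1 against 70.6 in IgG, a ratio of 0.872 (0.833 to 0.913). That is close to the median ratio of 0.932 over the 6967 genes of at least 10 CPM, and 33.6% of those genes had a lower ratio than Tfrc.

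The sequences through which iron regulatory proteins act on these 3 genes are shown because they set the ferritin chains and Tfrc apart. A search of GENCODE M21 transcripts (GRCm38) on the sense strand took a C, 5 bases, the loop CAGTGN and 5 more bases that pair with the first 5, with G-T pairs allowed and the last base of the loop not G. It found 1 match in the 5′ UTR of Fth1, 1 in the 5′ UTR of Ftl1 and 4 in the 3′ UTR of Tfrc. Of 21901 genes, 0.105% had a match in the 5′ UTR and 0.457% in the 3′ UTR. Each is printed with 6 flanking bases on both sides and the loop in capitals.
Fth1, 5′ UTR, chr19:9982732-9982760, plus strand: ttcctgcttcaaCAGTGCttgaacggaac
Ftl1, 5′ UTR, chr7:45459779-45459807, minus strand: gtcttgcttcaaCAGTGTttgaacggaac
Tfrc, 3′ UTR, chr16:32631219-32631247, plus strand: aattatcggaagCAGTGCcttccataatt
Tfrc, 3′ UTR, chr16:32631598-32631626, plus strand: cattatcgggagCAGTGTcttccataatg
Tfrc, 3′ UTR, chr16:32631663-32631691, plus strand: ctatatcggagaCAGTGAtctccatatgt
Tfrc, 3′ UTR, chr16:32631710-32631738, plus strand: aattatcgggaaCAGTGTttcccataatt
The Fth1 and Ftl1 sites share 26 of 29 bases, the stem next to the loop included. Counts of mRNA carry the Tfrc side of this control, through mRNA stability, and do not show translation of the ferritin mRNAs.

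**Figure D1:**
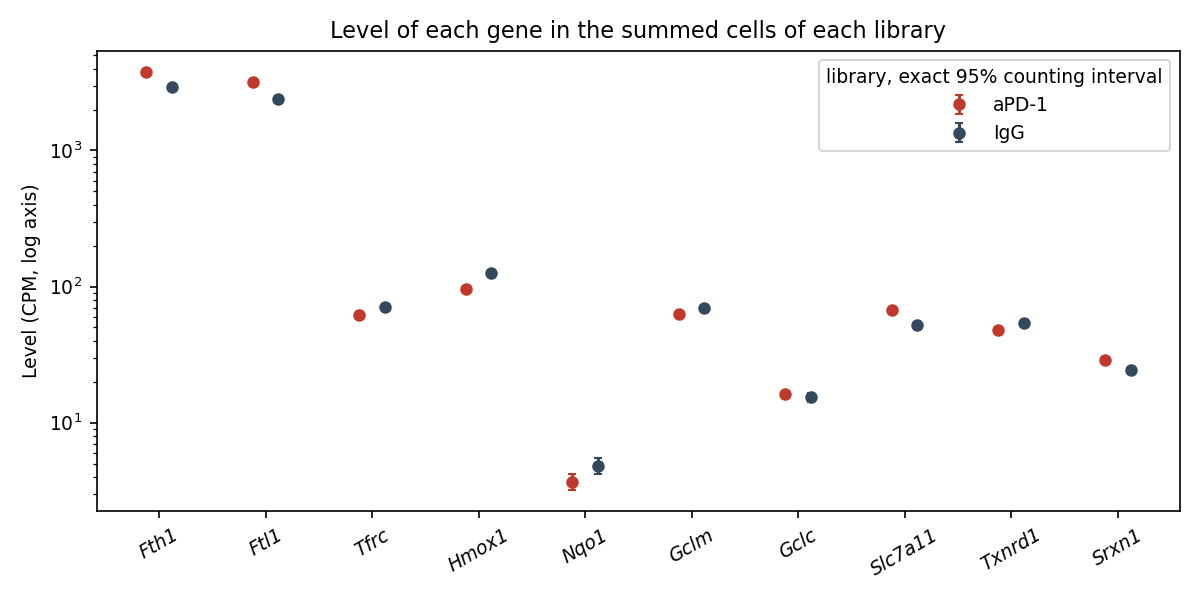
Level of the 10 genes in the summed cells of each library, in CPM on a log axis, aPD-1 left of IgG, with exact 95% counting intervals that are mostly smaller than the points. Fth1 and Ftl1 lie above 2000 CPM in both libraries, Nqo1 lies below 10 CPM in both, and Slc7a11 is 4th in aPD-1 and 7th in IgG.

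The 7 NRF2 targets did not differ as a block: Slc7a11 was higher in aPD-1 and Hmox1 was lower. Slc7a11 (chr3:49892526-50443614, minus strand), the cystine importer that feeds glutathione synthesis, had 67.0 CPM in aPD-1 against 51.8 in IgG, a ratio of 1.29 (1.23 to 1.36). Srxn1, sulfiredoxin, which repairs over-oxidised peroxiredoxins, had 29.0 CPM in aPD-1 against 24.2 in IgG, a ratio of 1.20 (1.11 to 1.29). Hmox1 (chr8:75093621-75100589, plus strand), the enzyme that opens the haem ring and frees its iron, had 95.2 CPM in aPD-1 against 126 in IgG, a ratio of 0.758 (0.731 to 0.786).

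The other 4 targets lay nearer to the median of all genes or were too low to place. Gclm, the modifier subunit of glutamate-cysteine ligase, had 63.3 CPM in aPD-1 against 69.3 in IgG (ratio 0.915, 0.873 to 0.958). Gclc, the catalytic subunit of the same enzyme, had 16.2 CPM in aPD-1 against 15.3 in IgG (ratio 1.06, 0.961 to 1.16), an interval that holds 1. Txnrd1, the cytosolic thioredoxin reductase, had 47.9 CPM in aPD-1 against 54.4 in IgG (ratio 0.881, 0.836 to 0.928). The 2 subunits of glutamate-cysteine ligase thus had ratios whose counting intervals narrowly do not meet, though neither passed the size rule given below. Their order depended on the make-up of the sums. It reversed with the clusters described below weighted equally, at 0.990 for Gclm and 0.923 for Gclc. The other alternatives tried kept Gclc above Gclm.

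Nqo1, the quinone reductase most often used as a readout of NRF2, was close to the bottom of the range: 225 UMIs in all aPD-1 cells and 238 in all IgG cells, or 3.66 and 4.82 CPM. Its ratio of 0.760 had a wide interval, 0.631 to 0.916. Its direction rests on these few transcripts.

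A size rule sorted the differences: a mean of 10 CPM or more, a ratio of at least 25% above equal (or, for lower genes, of at most 0.8) and a counting interval that leaves out 1. By this rule 3 of the 9 genes of at least 10 CPM were higher in aPD-1 (Fth1, Ftl1 and Slc7a11), against 3.90% of all 6967 genes. Hmox1 alone was lower, against 17.2% of all genes, so 1 of 9 is no more than the background. With the median of all genes set to 0, Hmox1 no longer passed (ratio 0.813) and Srxn1 did (1.29). With at most 5% mitochondrial UMIs, Fth1 no longer passed, at a ratio close to the limit. With the 6 clusters described below weighted equally, Ftl1 alone passed the rule, at 1.26, with Fth1 and Slc7a11 both at 1.23. None reached 2-fold, which 0.0718% of genes did upward and 0.316% downward. Over all 10 genes the median log2 ratio was -0.02, with 5 above and 5 below equal, beside -0.10 over all genes. Abundant genes as a class sat higher: of the 141 genes of at least 1000 CPM, which hold both ferritin chains, 68.8% had a ratio above 1 and 10.6% were counted as higher and 9.22% as lower.

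The ratios were then taken within groups of like cells, since the libraries differed in their make-up. Cells were clustered without the 10 genes and without the listed pathway genes, and 6 clusters had at least 100 cells of each library. Cluster 3, led by Mt2, Ero1l, Mt1, Lgals3 and Car9, held 4 of the hypoxia markers among its 10 top genes and was hypoxia-like; it had 533 aPD-1 and 206 IgG cells. Cluster 2, led by Cdc20, Ccnb1 and Cenpe, was in G2 or mitosis (520 aPD-1 and 609 IgG cells), and cluster 5, led by Mx1 and Oasl1, was type I interferon-like (145 and 100). Cluster 4, led by Gsn, Lbp and Dcn, was fibroblast-like by its markers (150 and 378). Cluster 0, led by Rac2, Spib and Mxd4 (991 and 615), and cluster 1, led by the histone genes Hist1h1b and Hist1h2ap (1006 and 250), were left unnamed.

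Both ferritin chains were higher in aPD-1 in 6 of 6 clusters, with every counting interval above 1. The Fth1 ratio ran between 1.15 in cluster 4 and 1.34 in cluster 1, and the Ftl1 ratio between 1.12 in cluster 4 and 1.35 in cluster 1. Slc7a11 was also above 1 in 6 of 6 clusters, 4 of them with the interval above 1, and its largest ratio was 1.48 in cluster 3 (59.1 CPM in aPD-1, 39.8 CPM in IgG). Srxn1 was above 1 in 6 of 6 clusters, 2 of them with the interval above 1. In each of these clusters the aPD-1 cells had the lower median depth. It was 21008 UMIs in aPD-1 against 29248 in IgG in cluster 1, and 12872 against 17243 in cluster 0. In cluster 5 the medians were close, 13122 and 13255 UMIs, and the ratios were 1.18 for Fth1 and 1.16 for Ftl1. The part of depth in the ratios within clusters was not tested.

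Hmox1 was below 1 in 5 of 6 clusters, 3 of them with the interval below 1. In the hypoxia-like cluster 3 it stood at 151 CPM in aPD-1 against 229 in IgG, a ratio of 0.660, and in the fibroblast-like cluster 4 at 232 CPM in aPD-1 against 199 in IgG, a ratio of 1.17 (1.07 to 1.27). Clusters 1 and 2, where it was lowest, had ratios of 0.941 and 0.923 with intervals that hold 1, while clusters 0 and 5 had 0.797 (0.741 to 0.856) and 0.813 (0.687 to 0.963). Tfrc was below 1 in 5 of 6 clusters and had 75.2 CPM in aPD-1 against 57.2 in IgG in the interferon-like cluster 5, a ratio of 1.31. Txnrd1 and Gclm lay below 1 in 5 of 6 clusters each, Txnrd1 with 2 intervals below 1 and Gclm with 1. In cluster 5 Gclm had a ratio of 1.34, with an interval just above 1 at its lower end.

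**Figure D2:**
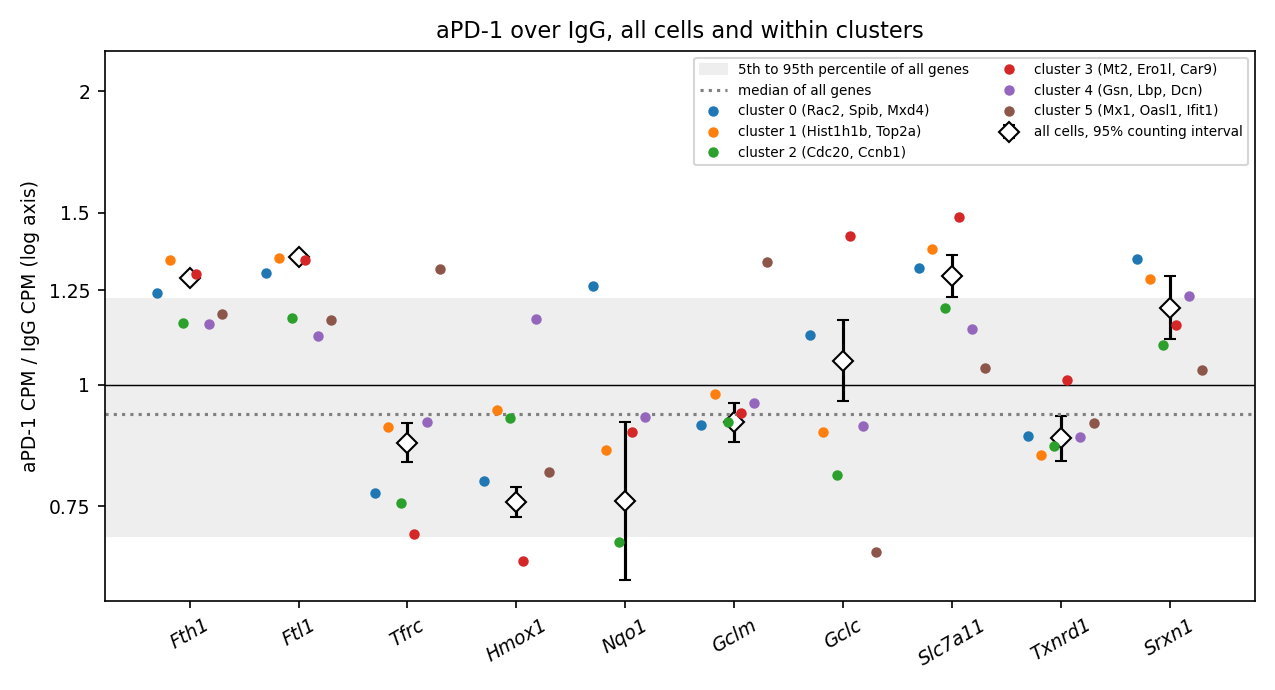
Ratio of aPD-1 over IgG CPM on a log axis for each gene, over all cells (diamonds with 95% counting intervals) and within 6 clusters (coloured points, shown where a gene had at least 20 UMIs). The grey band spans the 5th to 95th percentile of all genes and the dotted line their median; every point of Fth1, Ftl1, Slc7a11 and Srxn1 lies above 1, and those of Hmox1 spread between 0.660 and 1.17.

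The 2 ferritin chains were distributed differently over the clusters. Ftl1 was highest in the hypoxia-like cluster 3, at 6210 CPM in aPD-1 against 4629 in IgG, and it differed 3.14-fold in aPD-1 and 2.74-fold in IgG between its highest and lowest cluster. Fth1 differed only 1.56-fold in aPD-1 and 1.48-fold in IgG, and was highest in cluster 0, at 4377 CPM in aPD-1 against 3522 in IgG. The light chain's share of all ferritin UMIs was 60.4% in aPD-1 and 59.6% in IgG in cluster 3. In cluster 2 it was 38.8% in aPD-1 and 38.5% in IgG, and in cluster 1 it was 38.5% in aPD-1 and 38.4% in IgG. Clusters 3 and 1 thus lay 21.9 points apart in aPD-1 and 21.3 in IgG, while within a cluster the 2 libraries differed by at most 1.16 points. Over all cells the share was 45.9% in aPD-1 and 44.7% in IgG.

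Single cells spread widely around these shares. The light chain's share had an SD over cells of 16.2 points in aPD-1 and 15.2 points in IgG, while counting error alone would give 5.28 and 5.72 points. The 5th to 95th percentile of cells ran from 21.7% to 75.2% in aPD-1 and from 22.2% to 71.1% in IgG. Cells with more light than heavy chain were the minority outside cluster 3: over all cells 37.7% of aPD-1 cells and 35.7% of IgG cells had more Ftl1 than Fth1 UMIs, against 73.0% and 69.9% in cluster 3.

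**Figure D3:**
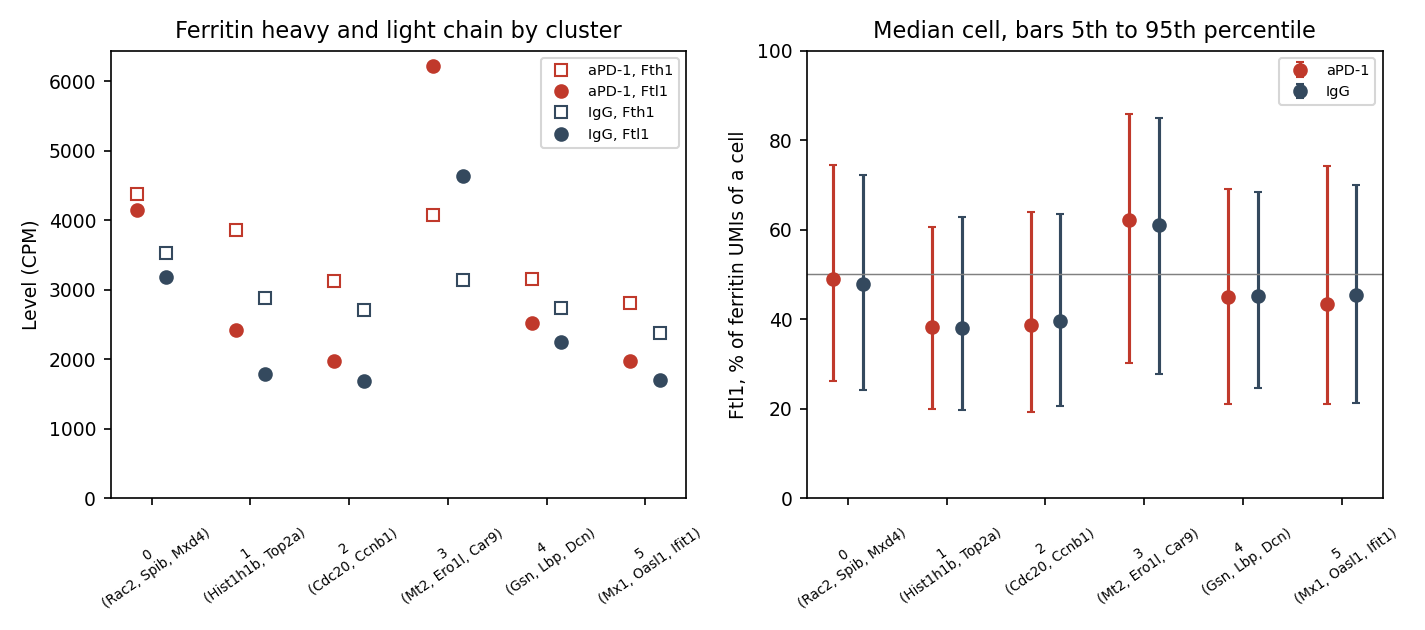
Left, CPM of Fth1 (open squares) and Ftl1 (filled circles) in 6 clusters, aPD-1 in red left of IgG in dark blue. Right, the share of Ftl1 among the ferritin UMIs of a cell, with points at the median cell and bars from the 5th to the 95th percentile; the hypoxia-like cluster 3 is the one cluster whose median cell lies above 50% in both libraries.

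The depth of the cells moved with the library and with these genes. In cells of 5000 to 10000 UMIs, Ftl1 stood at 4612 CPM in aPD-1 against 2770 in IgG, a ratio of 1.66. In cells of 20000 to 40000 UMIs it stood at 2450 CPM in aPD-1 against 2367 in IgG, a ratio of 1.04, and in cells of 40000 UMIs or more the ratio was 1.05. Over these depth ranges the difference in Ftl1 was thus largest in the shallower cells. Cluster 1, with median depths of 21008 UMIs in aPD-1 and 29248 in IgG, still had an Ftl1 ratio of 1.35. Depth and cluster were not separated. The ranges of 5000 to 10000 and of 10000 to 20000 UMIs held 418 and 1811 aPD-1 cells, against 261 and 767 IgG cells.

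Fth1 kept more of its difference across depth, with ratios of 1.33, 1.31, 1.20 and 1.15 in the 4 depth ranges taken from shallow to deep. Slc7a11 had ratios of 1.08, 1.23, 1.16 and 1.09, with intervals that hold 1 in the shallowest and the deepest range, and its CPM fell with depth in both libraries. Hmox1 had ratios of 1.16, 0.716, 0.652 and 0.954, lower in aPD-1 in the 2 middle ranges and with intervals that hold 1 in the shallowest and the deepest. Srxn1 lay above 1 in 3 of 4 ranges and was at 0.922 in cells of 20000 to 40000 UMIs. The part that depth plays in the summed ratios was not tested beyond these values.

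**Figure D4:**
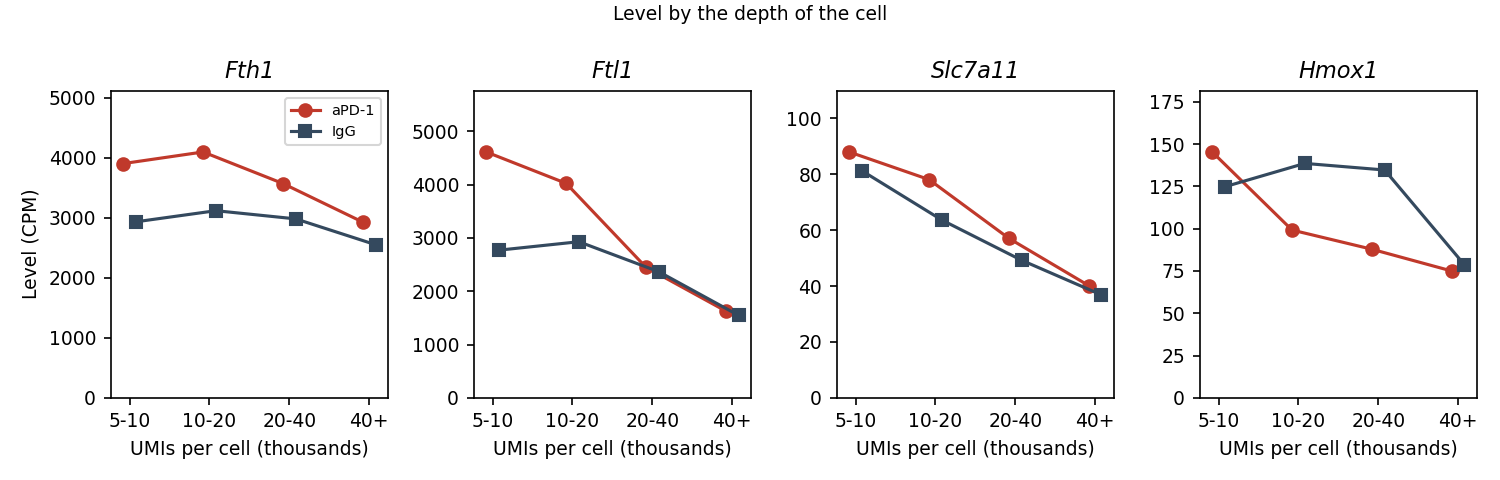
CPM of Fth1, Ftl1, Slc7a11 and Hmox1 in cells grouped by their own depth (UMIs per cell, 4 ranges from shallow to deep), aPD-1 in red circles and IgG in dark blue squares. The 2 libraries lie apart for Fth1 in all 4 ranges, lie close for Ftl1 above 20000 UMIs, and cross for Hmox1.

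Markers of other cells that hold iron or haem were read beside these results. The 10 macrophage markers summed to 5.42 CPM in aPD-1 against 30.9 in IgG, with 9 of 10 detected in aPD-1 (Adgre1 at 0) and 10 of 10 in IgG. The 5 erythroid markers summed to 12.5 CPM in aPD-1 against 4.25 in IgG, with all 5 detected in both. The 9 fibroblast markers summed to 669 CPM in aPD-1 against 1042 in IgG, with 9 detected in aPD-1 and 8 in IgG (Thy1 at 0), and the 6 endothelial markers, all detected in both, to 7.61 CPM in aPD-1 against 39.3 in IgG. With the fibroblast-like and endothelial-like clusters left out, Hmox1 had a ratio of 0.796 and Fth1 one of 1.27. The part of macrophage and erythroid transcripts in the Hmox1 and ferritin ratios was not tested.

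How evenly the cells carried each gene was read after every cell had been thinned to 5000 UMIs. A thinned cell held on average 19.4 UMIs of Fth1 in aPD-1 and 14.9 in IgG, and 18.1 UMIs of Ftl1 in aPD-1 and 12.8 in IgG. The variance over the mean, which is 1 for pure counting, was 13.2 for Ftl1 in aPD-1 and 8.04 in IgG. For Fth1 it was 9.05 in aPD-1 and 7.0 in IgG, beside a median of 1.06 over all genes in both libraries. Where cells differ in a gene, this value rises with its mean level, so it cannot rank the ferritin chains against low genes. Hmox1 had 2.76 in aPD-1 and 3.32 in IgG, and Slc7a11 had 2.29 in aPD-1 and 2.41 in IgG, so both were concentrated in some cells. Gclm, at a mean level close to that of Slc7a11, had lower values, 1.09 in aPD-1 and 1.12 in IgG. At means of 0.290 and 0.309 UMIs per thinned cell, values near 1 do not show that cells carried Gclm evenly. Between its highest and lowest cluster Gclm differed 1.95-fold in aPD-1 and 1.98-fold in IgG. The 10% of cells richest in a gene held 29.7% of Ftl1 UMIs in aPD-1 and 27.7% in IgG, and 25.0% and 25.1% of Fth1 UMIs. For Hmox1 they held 59.3% and 55.2%, for Slc7a11 67.9% and 73.1% and for Gclm 51.1% and 51.0%. Low counts alone also raise this share.

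Across cells, the 10 genes did not form 1 coexpressed group. Pearson's r was taken over log2(1 + UMIs per 10000) within each library, over 3356 aPD-1 or 2198 IgG cells that share a library and a range of depths; r is a description, and in sparse counts it is held near 0 by counting noise. The median r over the 45 pairs was 0.007 in aPD-1 and 0.005 in IgG, beside 0.011 and 0.013 over all pairs of the 6967 genes. Pairs over 0.1 in both libraries numbered 2. Fth1 with Ftl1 had r of 0.350 in aPD-1 and 0.332 in IgG, and Ftl1 with Hmox1 had 0.221 in aPD-1 and 0.202 in IgG. The 99th percentile of all gene pairs was 0.150 in aPD-1 and 0.162 in IgG.

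The link between the ferritin chains held inside cell states: taken as deviations from the cluster means, r of Fth1 with Ftl1 was 0.347 in aPD-1 and 0.307 in IgG. Ftl1 had the highest r with Fth1 of all genes of at least 10 CPM, ranked by the lower value of the 2 libraries. The opposite sign appeared for Ftl1 with Txnrd1, at -0.154 in aPD-1 and -0.138 in IgG. With cells thinned to 5000 UMIs that value was -0.064 in aPD-1 and -0.062 in IgG, and r of Fth1 with Ftl1 was 0.302 in aPD-1 and 0.260 in IgG. Among the 7 NRF2 targets alone, r ran from -0.032 to 0.093 in aPD-1 and from -0.034 to 0.132 in IgG, and 0 of their 21 pairs passed 0.1 in both libraries. Gclm with Gclc, subunits of 1 enzyme, had r of 0.057 in aPD-1 and 0.132 in IgG.

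**Figure D5:**
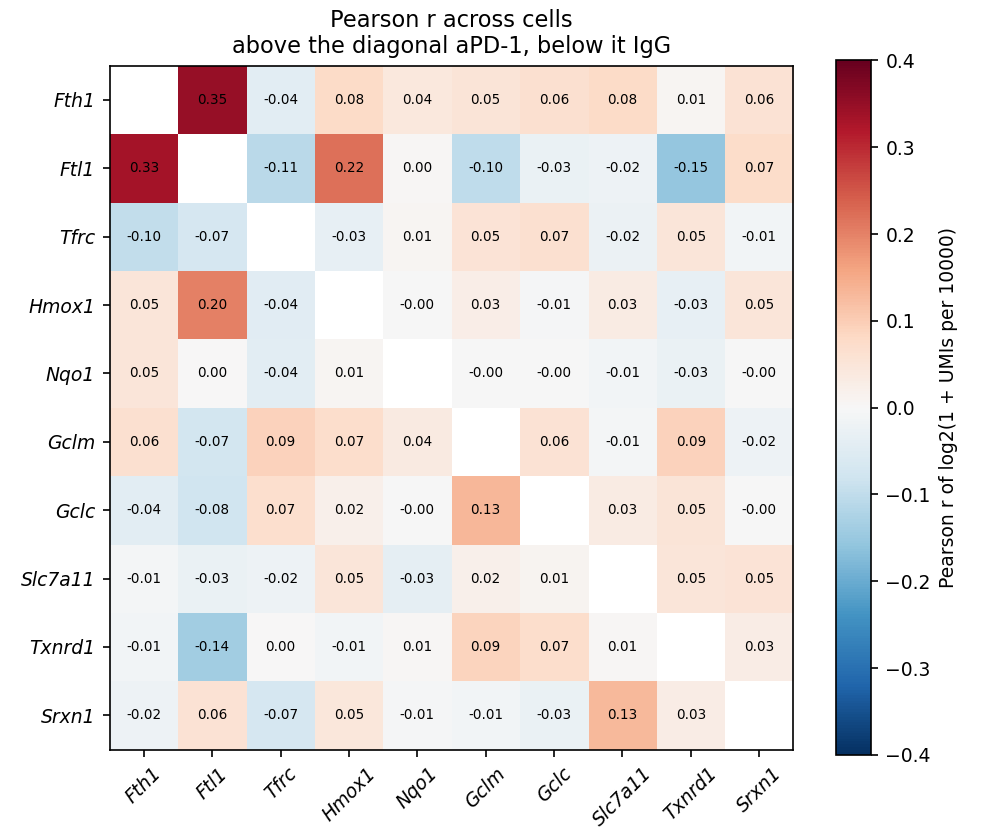
Pearson's r of each pair of genes across cells, above the diagonal in aPD-1 and below it in IgG, on a scale of red for positive and blue for negative values. Fth1 with Ftl1 and Ftl1 with Hmox1 stand out in both libraries, and the block of the 7 NRF2 targets is pale.

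The genes whose pattern over cells was most like each member differed from member to member. For Ftl1 they were Gabarap, an autophagy protein (r of 0.466 in aPD-1 and 0.441 in IgG), Bri3 (0.456 and 0.439) and the metallothionein Mt1 (0.459 and 0.394). For Fth1, after Ftl1, they were Arpc1b, an actin-branching subunit (0.20 and 0.22), and Igfbp4 (0.195 and 0.193). The sum of both chains was closest to Gabarap, Bri3, Mt1, Cstb, Mt2, Cox7a2l, Tpt1, Rpl17, Rps27 and Lgals3. The median r of the ferritin sum with 7 hypoxia markers was 0.225 in aPD-1 and 0.165 in IgG. The hypoxia value lay with the light chain: Ftl1 alone had 0.309 in aPD-1 and 0.268 in IgG, and Fth1 0.012 and -0.045. With 6 markers of G2 and mitosis the sum had -0.214 in aPD-1 and -0.178 in IgG. There Ftl1 had -0.235 in aPD-1 and -0.196 in IgG, and Fth1 -0.088 and -0.084.

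Hmox1 was closest to Sqstm1, the autophagy receptor p62, with r of 0.242 in aPD-1 and 0.297 in IgG, and the ubiquitin gene Ubb, with 0.214 in aPD-1 and 0.222 in IgG, was also among its 3 closest. Sqstm1 had a ratio of 0.759 between the libraries and Ubb one of 0.711, beside 0.758 for Hmox1. The next closest genes lay elsewhere: Cebpb (r of 0.210 in aPD-1 and 0.211 in IgG) had a ratio of 0.973 and Ftl1 one of 1.35. Slc7a11 was closest to Nfkbia (0.164 and 0.180), the NF-kB inhibitor, then to Ifrd1 and to Egr2. Its median r with the 12 ATF4 targets was 0.055 in aPD-1 and 0.108 in IgG. With the 8 NRF2 control genes it was 0.044 in aPD-1 and 0.083 in IgG. With 20 further known NRF2 targets it was -0.011 in aPD-1 and -0.015 in IgG, beside 0.005 and 0.003 over all genes. Of single genes, Atf4 had r of 0.136 in aPD-1 and 0.158 in IgG with Slc7a11, and Nfe2l2 had 0.016 and 0.062. Both lists were mixed: Sqstm1 of the NRF2 control genes had 0.087 and 0.141, and Asns of the ATF4 targets had 0.004 and 0.088. Nfe2l2 is also sparser, at a mean of 42.5 CPM against 427 for Atf4, which holds its r nearer to 0.

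The closest genes to Gclm, Txnrd1 and Tfrc were others again. Gclm was closest to Ran, the GTPase of nuclear transport (0.242 in aPD-1 and 0.250 in IgG), then Anp32e and Ranbp1. Txnrd1 was closest to Ncl, nucleolin (0.203 and 0.202), then Anp32b and Ranbp1. Tfrc was closest to Hspa9, the mitochondrial chaperone (0.208 and 0.262), then Ybx3 and Serbp1. Gclc was closest to Ybx3 (0.141 and 0.122), Dut and Nolc1, and Srxn1 to Trib1 (0.176 and 0.184), Sox9 and Igsf3. For Nqo1 no r passed 0.1: its closest were Clic1 (0.083 and 0.094), Urod and Laptm4a.

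Promoter sequence was read for 8 of the 10 genes, which had 12 promoters in RefSeq (GRCm38.p6). Hmox1 and Gclc had no entry among the promoters used and were not searched. The core of the antioxidant response element bound by NRF2 was searched as TGACNNNGC on both strands in the 250 bases before the start, and the element bound by ATF4 as TGATGCAAA. The first was in 10.2% of 32851 promoters and the second in 0.225%. Gclm and 1 promoter of Txnrd1 held the first and Slc7a11 held the second in 2 copies. A match describes the letters in this window and does not show binding, and elements farther upstream lie outside it. The form with G in place of C after TGA, as in tgagtcagc of the Srxn1 promoter, was not searched. The matches are printed in capitals with up to 40 bases on both sides, in the direction of transcription.
Slc7a11, chr3:50443614-50443719, minus strand: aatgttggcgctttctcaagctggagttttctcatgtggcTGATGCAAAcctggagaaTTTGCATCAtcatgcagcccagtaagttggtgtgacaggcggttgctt
Gclm, chr3:122245383-122245471, plus strand: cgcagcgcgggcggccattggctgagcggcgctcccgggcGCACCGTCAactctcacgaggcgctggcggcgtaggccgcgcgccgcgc
Txnrd1, chr10:82859074-82859162, plus strand: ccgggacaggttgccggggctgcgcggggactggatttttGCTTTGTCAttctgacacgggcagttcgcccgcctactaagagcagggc
The 2 copies in Slc7a11 begin 66 and 48 bases before the start and face each other, the second on the opposite strand. The matches of Gclm and Txnrd1 begin 134 and 92 bases before the start and are also on the opposite strand.

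The factors that control NRF2 were then read from a list of 8 genes, all of at least 10 CPM. Of these, 0 were counted as higher and 3 as lower in aPD-1: Nfe2l2, the gene of NRF2 itself (35.5 CPM in aPD-1 against 49.6 in IgG, ratio 0.715), Bach1, the repressor that competes for its sites (0.759), and Sqstm1 (0.759). Keap1, which marks NRF2 for destruction, had a ratio of 0.944, and the partner subunits Mafg and Maff had 1.15 and 1.06. The counts of 0 and 3 of 8 stand beside 3.90% higher and 17.2% lower among all genes, and the list's median log2 ratio of -0.14 beside -0.10.

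Of 30 other known NRF2 targets, 20 reached 10 CPM, and 2 were counted as higher and 5 as lower, with a median log2 ratio of -0.15. The higher ones were the efflux pump Abcc1 (1.26) and the haem transporter Slc48a1 (1.26), and Prdx6, a peroxiredoxin, had 1.15. The lower ones included Mgst1, a membrane glutathione transferase (0.666), Idh1, an NADPH-making dehydrogenase (0.730), and Tkt, transketolase (0.757). The shares counted, 2 and 5 of 20, stand beside 3.90% and 17.2% of all genes.

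Iron handling was read from 22 genes, of which 21 were matched and 13 reached 10 CPM, with a median log2 ratio of -0.01. The 2 counted as higher were the mitochondrial iron importers, Slc25a37 (mitoferrin 1; 21.6 CPM in aPD-1 against 15.2 in IgG, ratio 1.42) and Slc25a28 (mitoferrin 2; 17.8 CPM in aPD-1 against 14.2 in IgG, ratio 1.26). The 2 counted as lower were Aco1, iron regulatory protein 1 (10.2 CPM in aPD-1 against 15.5 in IgG, ratio 0.658), and Steap1, a metalloreductase (0.782). Ireb2, iron regulatory protein 2, had a ratio of 0.800, just short of the rule, and Steap2 one of 1.14. The 2 higher and 2 lower of 13 stand beside 3.90% and 17.2% of all genes, so the lower count is near the background. The iron exporter Slc40a1 had no UMI in either library.

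Of 11 haem genes, 9 reached 10 CPM. Of these, 0 had a ratio above 1, beside 32.9% of all genes, and 4 were counted as lower, beside 17.2% of all genes. The median log2 ratio was -0.29. The lowest were Urod (0.667) and Alas1 (0.743), enzymes of haem synthesis, and Blvra (0.753), which reduces the biliverdin that HMOX1 makes; Cpox (0.963) and Alad (0.900) were among the highest.

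Glutathione and ferroptosis genes had 0 counted as higher and 3 as lower among the 17 of 22 that reached 10 CPM, with a median log2 ratio of -0.05. With 17.2% of all genes counted as lower and 3.90% as higher, these counts are near the background. The 3 were Acsl4 (0.721) and Lpcat3 (0.752), which place polyunsaturated fatty acids into phospholipids, and Gpx8 (0.762). Txn2 (1.17), Sat1 (1.10) and Glrx (1.07) were the highest. Slc3a2, the heavy chain that pairs with the Slc7a11 product in the cystine transporter, had 262 CPM in aPD-1 against 263 in IgG, a ratio of 0.993.

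ATF4 targets had 1 counted as higher and 1 as lower among the 12 of 13 that reached 10 CPM, with a median log2 ratio of 0.00, beside 3.90% and 17.2% of all genes. The higher one was Ddit3, the stress factor CHOP, at 122 CPM in aPD-1 against 88.8 in IgG (ratio 1.37), and the lower one Ddit4, an inhibitor of mTORC1, at 170 CPM in aPD-1 against 290 in IgG (ratio 0.586). Atf4 itself had a ratio of 1.11 and Psat1 one of 1.09, while Asns (0.814) and Phgdh (0.854), enzymes of amino acid synthesis, were among the lowest. Over cells Ftl1 had a median r of -0.155 in aPD-1 and -0.143 in IgG with this list, beside -0.036 and -0.023 over all genes. The list was split: Ddit3 (0.071 and 0.070), Vldlr (0.133 and 0.130) and Ddit4 (0.062 and 0.111) were positive with Ftl1. The others were negative, Atf4 itself at -0.054 and -0.041 and Phgdh at -0.346 and -0.231. With the 7 S phase markers Ftl1 had -0.233 in aPD-1 and -0.247 in IgG. Tfrc had a median r of 0.136 in aPD-1 and 0.119 in IgG with the ATF4 list.

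Barcodes of 1000 UMIs or more with 10 to 50% mitochondrial UMIs, 207 in aPD-1 and 240 in IgG and not among the cells above, carried these genes in another balance. They were also shallower, with medians of 4252 UMIs in aPD-1 and 3758 in IgG, against 16121 and 19182 in barcodes with at most 10%. The part of depth in this was not tested. In CPM of the non-mitochondrial UMIs, Slc7a11 stood at 197 in aPD-1 and 118 in IgG, against 69.4 and 53.2 in barcodes with at most 10%. Tfrc stood at 159 in aPD-1 and 155 in IgG, against 63.6 and 72.3, while Fth1 was lower, at 2183 in aPD-1 and 2332 in IgG, against 3915 and 3077. Hmox1 stood at 229 in aPD-1 and 192 in IgG, against 98.7 and 130. Gclc, with only 46 and 28 UMIs, stood at 57.2 in aPD-1 and 28.5 in IgG, against 16.7 and 15.6.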

How the data were processed

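The deposited matrices hold UMI counts per gene and barcode, not normalised; per the file headers, they come from Cell Ranger 3.0.2. The submitters' processing notes name Cell Ranger, mm10 and Seurat 2.1.0; these sources do not state the gene annotation release. The aPD-1 matrix holds 523832 barcodes with a UMI and the IgG matrix 4351, so the same floor of 5000 UMIs was set for both. Kept cells held 61462778 UMIs in aPD-1 and 49422640 in IgG. No doublet was removed. Sums were scaled to CPM; ratios carry exact conditional binomial 95% intervals and levels exact Poisson ones. With 1 library per group no p-value was computed. Cells of both libraries were clustered together in scanpy 1.11.5 (2000 variable genes, 30 components, 15 neighbours, leidenalg 0.10.2 at resolution 0.5); a name needed 3 markers among 10 top genes. Named partners are the 3 genes (10 for a sum) with the highest lower r of both libraries, and named list genes the up to 3 highest and 3 lowest ratios (some genes taken by these rules are left unreported); Slc40a1, Slc3a2, Epcam, Krt18 and Vim were chosen after their values were seen. The members and lists were chosen with earlier results of these data known. The steps were tested on simulated data. Coordinates are GRCm38, from GENCODE M21 or RefSeq.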

Additional observations from a re-analysis of the deposited data

Results flagged for a closer look

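The aPD-1 matrix also holds 515790 barcodes of under 100 UMIs, with a mean of 8.21 UMIs each, which no comparison above uses and for which the IgG matrix has no counterpart. All 10 genes had UMIs there, above the limit that a count of 0 allows (3 UMIs, or 0.708 CPM). Fth1 stood at 3679 CPM and Ftl1 at 2689 CPM, against 3779 and 3210 CPM in the kept aPD-1 cells. Hmox1 (110.0 CPM), Txnrd1 (57.9 CPM) and Nqo1 (4.01 CPM) were at 1.16, 1.21 and 1.10 times their level in the cells, for Nqo1 with a counting interval of 0.628 to 1.80. Gclm (55.0 CPM), Tfrc (44.4 CPM), Srxn1 (23.4 CPM) and Gclc (13.0 CPM) were below it, for Gclc with an interval that holds 1. Slc7a11, at 32.1 CPM, was at 0.479 times its level in the cells (counting interval 0.401 to 0.569), the lowest of the 10. The part of free RNA in the ratios between the libraries was not tested.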

How the results depend on the processing

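No member reached 2-fold under any of the alternatives tried, and no ratio counted as different changed direction. With ribosomal protein and mitochondrial genes left out of the denominator, and with the median log2 ratio of all genes set to 0, the median log2 ratio of the members was 0.0777 and 0.0772, 0 members were counted as lower, and Srxn1 passed as a 4th higher member. Srxn1 also passed with every cell weighted equally and with cells thinned to 5000 UMIs. With at most 5% mitochondrial UMIs, 2 members were higher (Ftl1 and Slc7a11). Averaging the 6 clusters equally left 1 member past the size rule of 25%, 1 higher (Ftl1) and 0 lower, with Fth1 at 1.23 and Slc7a11 at 1.23. Averaging the 4 depth ranges equally, chosen after seeing the data, left 2 past the size rule of 25% (Fth1 and Ftl1) and 0 lower, with Slc7a11 at 1.14. With no filter on low values 2 were lower, since Nqo1 then counts. The cause was not tested. Over 12 alternatives the ratio of Ftl1 ran from 1.26 to 1.45, of Fth1 from 1.23 to 1.38, of Slc7a11 from 1.14 to 1.39, of Srxn1 from 1.14 to 1.30, of Hmox1 from 0.735 to 0.870 and of Gclc from 0.923 to 1.13. No paired analysis was possible because each group has 1 library.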
